A study of Homo sapiens with 12 samples.

Results

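A set of 97 features, among 78932 rows of a gene-level count table of which 52409 held at least 1 count, was read in quantity only in drug-resistant cells of the melanoma line Hs294T. The members were chosen by measured values: at least 5 CPM (the count divided by the library total, times 1000000) in all 3 Hs294T resistant libraries and at most 1 CPM in all 9 other libraries. Gene names and identifiers are missing from the deposited table. Each feature is therefore named by its row number below the header, no gene or role was assigned to it, and no sequence or genome position is given.

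The study measured RNA, with a stranded mRNA library kit, from WM9 and Hs294T, lines of metastatic melanoma cells that the labels give as BRAF-mutant, in 4 groups of 3 libraries labelled as biological replicates. WM9 resistant and Hs294T resistant cells were adapted to stepwise higher vemurafenib and cobimetinib, ending at 0.4 µM of each. WM9 control and Hs294T control cells were kept alongside them with the solvent DMSO alone. All 4 groups shared the same medium with fetal bovine serum. Whether resistant cells are 1 clone or a mixed culture is not stated in the sources used here, and resistance cannot be told apart from exposure to the drugs or from time in separate culture.

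Mutant BRAF signals continuously to the kinases MEK and ERK, which drive the growth of many melanomas. Vemurafenib blocks mutant BRAF and cobimetinib blocks MEK, and tumour cells kept under both drugs can acquire resistance through renewed signalling or through a lasting switch in the genes they transcribe. Features that are silent in parental cells and read in quantity only in 1 resistant line are one way in which such a switch appears in RNA data. Without gene names, the members could not be assigned to any of these routes, and the labelled cell type could not be checked against its markers.

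Library totals lay between 16817256 and 22561406 counts, so that 3 counts in a single library corresponded to 0.133 to 0.178 CPM. The floor of 3 counts used below for a sum of 0 was applied to counts summed over several libraries. It therefore stands for a lower CPM than that range. Hs294T resistant 2 and 3 were nearly alike. In a chi-square comparison of their counts the mean per feature was 3.08, where sampling noise alone gives about 1, against 36.8 and 33.5 for Hs294T resistant 1 with 2 and with 3. WM9 control 2 and 3 were a similar pair (2.93, against 45 and 47.9 with WM9 control 1). Over the 97 members alone the means were 3.33 for Hs294T resistant 2 with 3, 14.4 for 1 with 2 and 14.8 for 1 with 3. All libraries were kept as separate samples, and n = 3 may overstate the independent samples in these groups. The coefficients of variation given below measure the spread between the Hs294T resistant libraries. The p-values of the main fit rest on a spread between libraries that was estimated from all 12 libraries together.

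Together the members took 2264 CPM in Hs294T resistant 1, 2312 CPM in replicate 2 and 2210 CPM in replicate 3, or 0.226%, 0.231% and 0.221% of all counts. Their summed level in the 9 other libraries lay between 9.45 CPM (Hs294T control 3) and 20.5 CPM (WM9 resistant 1). Most members were of low abundance. The mean over the Hs294T resistant libraries ranged from 5.27 to 152 CPM with a median of 10.7 CPM. The lowest of the 3 values was at least 10 CPM in 42 members, at least 20 CPM in 27, at least 50 CPM in 10 and at least 100 CPM in 5. Those 5 features held 29.8% of the members' summed mean level. In bulk RNA a higher level in every cell and a larger share of cells with the feature cannot be told apart.

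**Figure D1:**
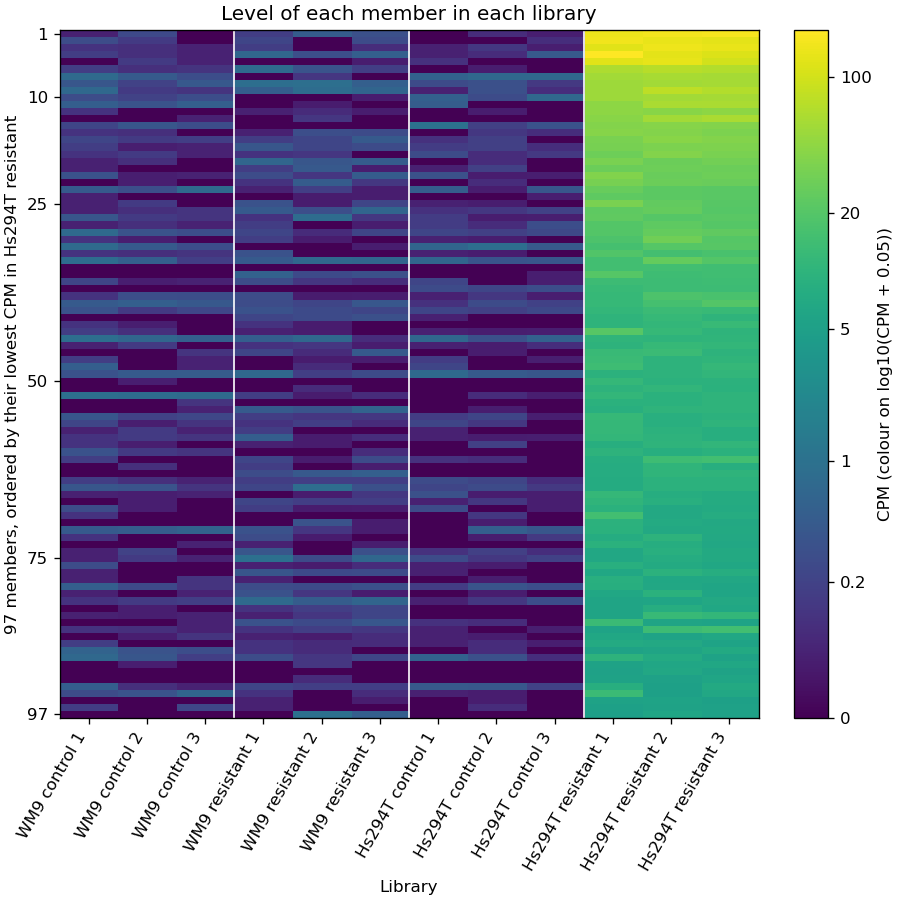
Heat map of the CPM of the 97 members (rows, ordered by their lowest value in the Hs294T resistant libraries) in each of the 12 libraries (columns, grouped by white lines), coloured on a log scale. The 3 Hs294T resistant columns are at 5 CPM or more by the choice of the members, and the 9 others hold scattered values of up to 1 CPM that differ between members.

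The most abundant member by its lowest level was row77791, with 143, 153 and 159 CPM in Hs294T resistant 1, 2 and 3 and between 0 and 0.488 CPM elsewhere. Its 9035 counts in Hs294T resistant compared with 3 in Hs294T control, a ratio of 3058 scaled to library totals (95% counting interval 1046 to 14830). The second, row23678, had 147, 133 and 124 CPM, and at most 0.286 CPM in any other library. In both members the 9 other libraries all held less than 0.5 CPM. That every Hs294T resistant library stood above them is fixed by the choice of members.

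For row69892 the values were 121, 140 and 135 CPM, with 15 counts over all 9 other libraries. The level of row77622 was less even, at 175, 127 and 112 CPM, and it had residual signal in WM9 resistant (0.687, 0.310 and 0.540 CPM). At 123, 129 and 100 CPM, row48076 had the fewest residual counts of the 8 most abundant members, 7 in all, and its ratio to the 9 other libraries was 2976 (interval 1444 to 7405). These 3 features overlapped each other in level.

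Below 100 CPM stood row36759 with 64.8, 73.8 and 68.0 CPM, for which a single count was found in the Hs294T controls (ratio 4165, interval 747 to 164600). Its residual signal elsewhere reached 0.801 CPM in WM9 resistant 1. The next, row74376, had 57.2, 59.2 and 58.5 CPM, and row5768 had 53.1, 55.9 and 58.7 CPM. Of the 8 most abundant members, these 2 carried the most reads outside the chosen group, 73 and 82 counts in all. Those of row74376 lay mostly in the control libraries of both lines (0.297 to 0.801 CPM, against 0 to 0.133 CPM in WM9 resistant), and those of row5768 were highest in WM9 resistant (0.540 to 0.931 CPM).

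**Figure D2:**
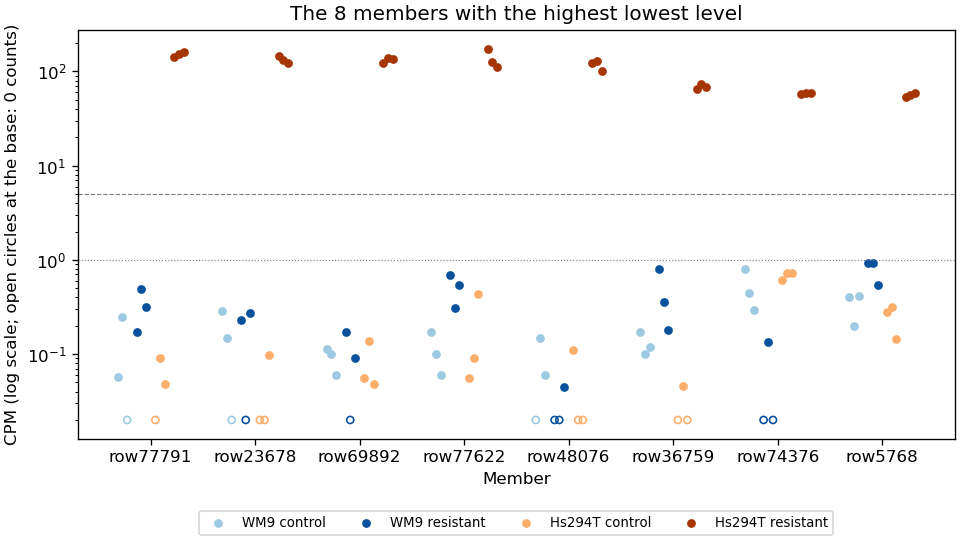
CPM on a log axis of the 8 members with the highest lowest level, one point per library, coloured by group; open circles at the base mark 0 counts, and the lines mark 5 CPM (dashed) and 1 CPM (dotted). Hs294T resistant points lie between 53.1 and 175 CPM. The highest residual point is in WM9 resistant for row77791, row69892, row77622, row36759 and row5768, and in WM9 control for row23678, row48076 and row74376.

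The members differed in how completely they were absent elsewhere. Only row9340 and row39523 had 0 counts in all 9 other libraries. Against a floor of 3 counts over those libraries, row39523 (14.7, 14.7 and 14.2 CPM) was 858-fold higher in Hs294T resistant and row9340 (5.33, 6.69 and 5.52 CPM) 344-fold. At the other end, 24 members had at least 1 count in every library. Over the 9 other libraries the median was 20 counts and the maximum 98.

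Residual reads were spread over the groups. All 3 libraries were at 0 counts for 16 members in Hs294T control, for 11 in WM9 control and for 7 in WM9 resistant. The highest value outside Hs294T resistant fell in WM9 resistant for 47 members, in WM9 control for 37 and in Hs294T control for 11, leaving out the 2 members at 0 everywhere else. The parental state of the same line thus held the highest residual value least often in this count. WM9 control 1 alone held it for 23 members, and that library had the highest summed level of the members among the 6 controls, 20.03 CPM, against 9.45 to 13.6 CPM in the other 5. The ratio of Hs294T resistant to Hs294T control counts ranged from 18.9 to 4165 in the 81 members with a control count. It was 110 to 1058 against the floor of 3 counts in the 16 without one, and the median was 185 with these members at that value.

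The cutoffs divided a continuous range. Just inside the cutoff of 5 CPM were row27056 (lowest value 5.01 CPM), row8400 (5.06 CPM) and row24196 (5.15 CPM), and just outside were row9345 (4.99 CPM), row31377 (4.96 CPM) and row14900 (4.92 CPM). At the cutoff of 1 CPM the members nearest to it were row75524 (highest other value 0.996 CPM), row27056 (0.975 CPM) and row13709 (0.973 CPM). The rows row46157 (1.02 CPM), row73564 (1.02 CPM) and row70235 (1.03 CPM) missed it narrowly. A number of 97 is therefore set by the cutoffs, and with 10 and 1 CPM it was 42.

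Among the Hs294T resistant libraries the members varied much as other features of that group did. Their coefficient of variation of CPM had a median of 12.9% (quartiles 7.95% and 18.2%), beside 11.6% (6.49% and 18.6%) over all 10043 rows with at least 5 CPM in the same libraries. The steadiest were row74376 with 1.69%, row75524 (38.1, 39.3 and 38.2 CPM) with 1.75% and row39523 with 1.90%. The most variable were row10308 (12.9, 5.75 and 5.68 CPM) with 50.9%, row66953 (12.9, 5.18 and 6.68 CPM) with 49.6% and row71018 (14.8, 6.85 and 7.83 CPM) with 44.1%.

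In each of those 3 variable members the high value was that of Hs294T resistant 1, the library that stood apart from the near-identical pair. That library was above both others for 38 members and below both for 48, and between them for 11. Over the 10043 rows it was above for 38.2%, below for 53.1% and between for 8.70%. The highest value was more than 1.5 times the lowest in 17 of the 97 members, and the largest such ratio was 2.61.

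WM9 resistant and WM9 control cells were compared next, since the choice of members held both groups to 1 CPM without fixing which of them was higher. Of the 97 members, 25 (25.8%) were higher and 9 (9.28%) lower in WM9 resistant, and 63 were not called (edgeR quasi-likelihood test over all 18615 features tested, Benjamini-Hochberg adjusted p below 0.05, n = 3 per group). Only 5 of the 97 passed the low-count filter on the 6 WM9 libraries alone, and the others were tested through their level in Hs294T resistant. Over all features tested, 30.3% were higher and 31.4% lower. Among the 1624 tested rows outside the set that also had at most 1 CPM in all 6 WM9 libraries, 17.1% were higher and 18.3% lower. The median log2 fold change was 0.82 over the members, -0.09 over all features and 0 over these other low rows, which were not matched to the members by level. The difference between the members and those rows was not tested.

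These counts describe members that entered the test because of their level in Hs294T resistant, and that group also enters the estimate of their spread. Of the 5 members that passed the filter on the 6 WM9 libraries alone, 2 were higher and 1 was lower in a fit of those libraries. With only those libraries in the fit and no filter, a setting added after the values were seen, 20 members were higher and 5 lower, and each of these 25 was among the 34 above. No alternative that tested any of the 34 reversed its direction.

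The 25 members higher in WM9 resistant had 9 to 49 counts over its 3 libraries and at most 18 over the 3 controls, with 0 in the controls for 5 of them. On CPM from column totals all WM9 resistant libraries lay above all WM9 controls for 17 members, each among the 25, and below them for 14. Over all features tested 23.6% were separated upwards and 45% downwards, and over the 1624 other rows with at most 1 CPM in WM9 13.9% and 31.1%. Largest by log2 fold change was row27056, with 0, 22 and 12 counts in WM9 resistant 1, 2 and 3 and none in the controls (log2 fold change 6.58, SE 1.45, edgeR adjusted p = 0.00241). It was 9.89-fold higher against a floor of 3 counts over the controls, with a counting interval from 7.61 upwards. Its groups overlapped, since WM9 resistant 1 was also at 0.

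The next, row32529, had 5, 10 and 12 counts in WM9 resistant, and row43993 had 10, 6 and 7, both with 0 in all WM9 controls. Against the same floor they were 7.85-fold and 6.69-fold higher (counting intervals from 5.96 and 5.01 upwards, edgeR adjusted p = 7.91e-05 and 0.000241). All WM9 resistant libraries of these features lay above all controls. In Hs294T control, row27056 and row32529 were also at 0 counts and row43993 had 1. None of these features passed the low-count filter on the 6 WM9 libraries alone, so their calls rest on the fit that includes Hs294T resistant or on no filter.

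These members remained far below their level in Hs294T resistant. The ratio of the mean CPM of Hs294T resistant to that of WM9 resistant had a median of 45.8 over the 25, from 9.49 for row966 to 467 for row77791. Of the 8 most abundant members, row77791, row77622, row36759 and row5768 were among the 25 (log2 fold changes 2.01, 2.63, 2.18 and 1.72, edgeR adjusted p = 0.0178, 0.00406, 0.00655 and 0.00114). These p-values come from the fit that includes Hs294T resistant. With the low-count filter on the 6 WM9 libraries alone, only 2 members were called higher.

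The 9 members lower in WM9 resistant had 14 to 46 counts over the WM9 controls and at most 6 over WM9 resistant, and no WM9 resistant library of any of the 9 reached a WM9 control library. The feature row75524 had 4, 8 and 5 counts in WM9 control 1, 2 and 3 and 0 in all 3 WM9 resistant libraries. Against a floor of 3 counts that was 6.50-fold lower, with a counting interval of the ratio from 0 to 0.211 (log2 fold change -5.42, SE 1.20, edgeR adjusted p = 0.00169). For row1932 the WM9 controls held 14, 9 and 5 counts and WM9 resistant 0, 0 and 1, a ratio of 0.0312 (counting interval 0.000762 to 0.188, edgeR adjusted p = 0.000645). For row18530 the counts were 9, 7 and 9 against 0, 1 and 0, a ratio of 0.0349 (interval 0.00085 to 0.213, edgeR adjusted p = 0.00808). On the 6 WM9 libraries alone, row75524, row1932 and row18530 did not pass the low-count filter either.

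In Hs294T these same features were at their highest in resistant cells, which the choice of members fixes. Mean levels in Hs294T resistant were 38.5 CPM for row75524, 19.1 CPM for row1932 and 55.7 CPM for row18530. The other 6 were row67689, row74376, row68824, row66953, row77854 and row67679. Of the 9, 6 had more than 3 counts over the Hs294T controls as well, with a range of 2 to 42 counts over all 9. Median mean levels in Hs294T resistant were 23.4 CPM for the 9 and 11.7 CPM for the 25.

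**Figure D3:**
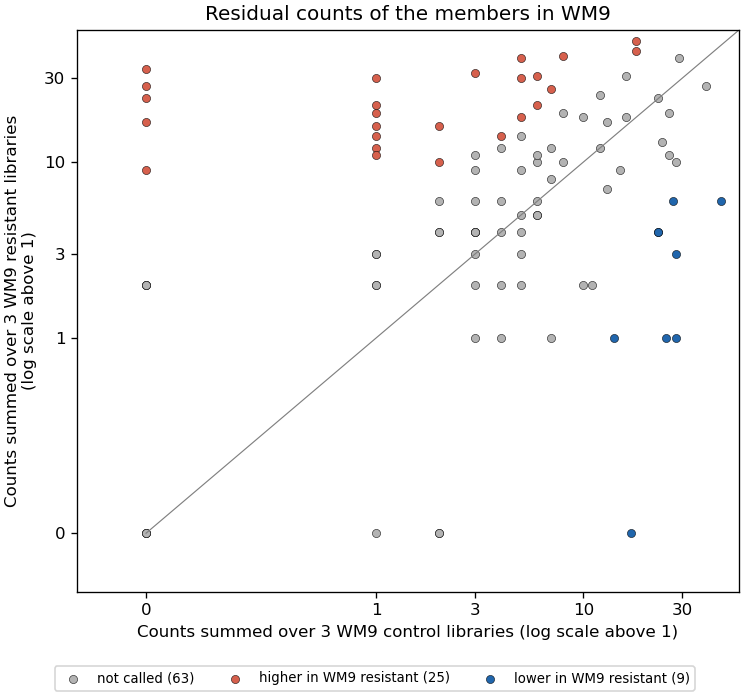
Counts of each member summed over the 3 WM9 control libraries (x axis) and the 3 WM9 resistant libraries (y axis), both on a log scale above 1 count, with the line of equal counts; members with the same pair of sums share a point. The 25 members called higher in WM9 resistant lie above the line and the 9 called lower lie below it, all at or under 49 counts. Most members passed the low-count filter only through Hs294T resistant.

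The control groups of the lines were compared with each other. Their libraries were much alike over all features, and without gene names the labels of line could not be checked, so the comparison holds for libraries as labelled. Of the 97 members 1 was higher and 3 were lower in Hs294T control than in WM9 control, beside 2.10% and 1.77% of all features tested and 0.367% and 0.733% of 2454 other tested rows with at most 1 CPM in all 6 control libraries (the same edgeR fit and threshold, n = 3 per group). Hs294T control 1 and WM9 control 1 deviated together from their group means, whereas Hs294T control 2 and 3 each went more with a WM9 control of another number. With the replicate number as a block, 1 member was higher and 1 was lower. With the low-count filter applied to the 6 control libraries alone, 5 members could be tested, of which 0 were higher and 1 was lower. The numbers are too small to read a share from.

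The member higher in Hs294T control was row17904. It had 5, 5 and 6 counts in Hs294T control 1, 2 and 3 and 0 counts in all 6 WM9 libraries, and 12.3, 13.5 and 13.5 CPM in Hs294T resistant. Against a floor of 3 counts over WM9 control it was 4.78-fold higher in Hs294T control, with a counting interval from 3.45 upwards (log2 fold change 5.39, SE 0.86, edgeR adjusted p = 0.00616). The call held in all 20 alternatives that tested it, with adjusted p between 0.000758 and 0.0289. However, row17904 did not pass the low-count filter on the 6 control libraries alone. Those 20 alternatives therefore either used no filter or passed the feature through its level in Hs294T resistant.

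Lower in Hs294T control was row68824, with 0, 2 and 1 counts there and 16, 17 and 13 in WM9 control (log2 fold change -3.71, SE 0.61, edgeR adjusted p = 0.00339). This feature was lower in WM9 resistant than in WM9 control too (3, 1 and 2 counts), so that WM9 control was the second highest of its 4 groups. The other calls were weak. For row39828 (0, 0 and 0 against 6, 3 and 2 counts, edgeR adjusted p = 0.0476) the adjusted p lay between 0.0174 and 0.159 over the alternatives. For row77854 (0, 2 and 0 against 11, 7 and 5 counts, edgeR adjusted p = 0.0468) it lay between 0.0123 and 0.165. Neither row39828 nor row77854 passed the low-count filter on the 6 control libraries alone, so these ranges leave that setting out. The number lower fell to 1 without any one of WM9 control 1, 2 or 3, Hs294T control 3 or Hs294T resistant 1, 2 or 3.

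The place of the members in the row order of the table was not used to choose them. What that order stands for is not given in the sources used here. Members were mostly scattered, with a median gap of 614 rows, and only row32371 and row32372 were in consecutive rows. Their levels in Hs294T resistant were 10.0, 10.9 and 12.3 CPM and 11.4, 9.46 and 9.41 CPM, and outside it at most 0.114 and 0.050 CPM. Within 5 rows of each other lay 3 pairs in all, the others being row1213 with row1215 and row42283 with row42288. These numbers depend on the cutoffs too. Of the rows just outside 5 CPM, row31377 was next to the member row31378 and row9345 was close to the member row9340.

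Rows close to members, without being members, were more often higher in Hs294T resistant than in Hs294T control. Of 250 tested rows within 5 rows of a member, 97 (38.8%) were higher and 43 (17.2%) lower (the same edgeR fit and threshold, n = 3 per group), beside 24.9% higher and 24.9% lower of all 18615 features tested. The share higher was 30.5% of 220 rows at 6 to 10 rows, 28.7% of 439 at 11 to 20, 25.7% of 1256 at 21 to 50 and 24.7% of 1945 at 51 to 100. At least 1 such higher row lay within 5 rows of 60 members, out of 89 members with a tested row in that window.

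The rows within 5 rows of a member did not stand out as higher in WM9. Of them 29.6% were higher and 26.8% lower in WM9 resistant cells, beside 30.3% and 31.4% of all features. The median log2 fold change of these 250 rows was 0.30 in Hs294T and 0.06 in WM9. At 6 to 10 rows the lines were more alike. The shares higher there were 30.5% in Hs294T and 35.0% in WM9, and the median log2 fold changes 0.281 and 0.285. At 11 to 20 rows the share higher in WM9 was 31.4%. Rows next to each other may share reads if their features overlap, and neighbouring rows are not independent. Their part in this pattern was not tested, nor was the difference between near rows and all rows.

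**Figure D4:**
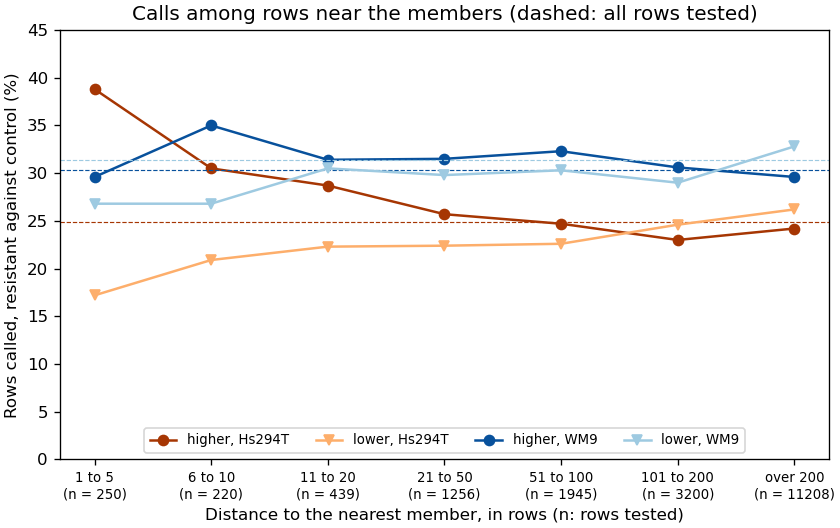
Share of tested rows, members left out, called higher (circles) or lower (triangles) in resistant than in control cells of each line, by distance in rows to the nearest member; dashed lines give the share over all tested rows. The share higher in Hs294T falls from 38.8% within 5 rows to 24.7% at 51 to 100 rows, while the WM9 shares lie between 26.8% and 35.0%.

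By the same cutoffs, 43 features were on only in WM9 resistant and 76 in both resistant groups with both control groups off. The summed level of the 43 was 2213 to 2449 CPM in the WM9 resistant libraries, close to the 2210 to 2312 CPM that the 97 members took in Hs294T resistant, and their highest mean level was 972 CPM against 152 CPM. Only 1 feature was on in Hs294T control alone and 4 in WM9 control alone. No feature was on throughout one line and off throughout the other. Rows that were off only in Hs294T resistant, with at least 5 CPM in all 9 other libraries, numbered 33.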

How the data were processed

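Raw read counts deposited by the authors were used, 1 column per library, with no normalization. Per the submitters' processing notes, which name tools without their roles, STAR 2.7.11b, Subread 2.0.8, featureCounts and build GRCh38 were used. Neither annotation nor strand setting is given in these sources, so features that overlap or have near-identical copies could not be told apart. CPM (counts per 1000000) values were computed on column totals. Members and lists were chosen with earlier results of these data known. Tests used edgeR 4.0.16 (R 4.3.3): filterByExpr by group with a minimum count of 10, TMM factors, a robust quasi-likelihood fit of all 12 libraries in 4 groups, two-sided, Benjamini-Hochberg adjustment. Every contrast with Hs294T resistant was used to choose the members and was not tested over them; for other rows Hs294T resistant was tested against Hs294T control. Each SE is the absolute log2 fold change divided by the square root of the F statistic of its test. Ratios of summed counts were scaled to library totals, with exact 95% intervals that cover counting error only. The floor of 3 counts is applied over a group, or over all 9 other libraries. A fold value against it leaves out counting error in the higher group.

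Named features are the 8 members with the highest lowest CPM, up to 3 called members of largest log2 fold change per direction and contrast, the 3 most and least variable, the 3 nearest each cutoff on either side, and the longest run of consecutive rows. Others (the features with 0 counts elsewhere, the remaining 6 lower in WM9 resistant, row966, and the pairs near each other) were named after their values were seen. Same-numbered libraries of the control groups correlated in their deviations from group means (r = 0.607, 0.303 and 0.117). Hs294T control 2 correlated more with WM9 control 3 (0.455), and Hs294T control 3 more with WM9 control 2 (0.238). Only replicate 1 was closest to its own number, and the block value is given there as a check. Between the WM9 groups the same-numbered values were -0.121, -0.249 and 0.285. The highest value there was 0.416 (WM9 resistant 2 with WM9 control 1), and the numbers were not taken to pair these groups. Alternatives were DESeq2 1.42.0, other scaling, no filter, a replicate block, fewer libraries, a stricter threshold, summed near-identical pairs and each library left out.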

Additional observations from a re-analysis of the deposited data

Results flagged for a closer look

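Opposite directions in the lines were seen for 14 of the 97 members, on CPM from column totals. Their 3 WM9 resistant libraries all lay below the 3 WM9 controls while their 3 Hs294T resistant libraries lay above the 3 Hs294T controls. Of these, 9 were called lower in WM9 resistant by edgeR (adjusted p below 0.05). Over all features tested, 45% had all WM9 resistant libraries below all WM9 controls, and 31.1% of other rows with at most 1 CPM in WM9 did. The pattern was thus less frequent among the members than in either background. Without scaling factors the median log2 fold change of all features in this contrast was -0.59, so column totals shift it downwards. The Hs294T direction was fixed by the choice of the members, and the difference between lines was not tested.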

How the results depend on the processing

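The number of members was 42 with cutoffs of 10 and 1 CPM, 63 with 5 and 0.5 CPM and 34 with 20 and 2 CPM, and it lay between 97 and 108 with other library sizes, summed pairs or any library left out. In the WM9 contrast, the low-count filter applied to its 6 libraries alone left 5 members to test, of which 2 were higher and 1 lower; without the filter 5 were lower. Every other alternative kept the counts within 1.5 times, with 22 to 27 higher and 7 to 9 lower when 1 library was left out, and 25 and 9 with the replicate block, which kept 33 of the 34 calls. Between the controls, 0 members were higher with the 6 libraries and their own filter. The number lower was 1 with the replicate block, the 6 libraries alone (with and without the filter), an adjusted p below 0.01, summed pairs or no scaling factors, and 1 to 4 when 1 library was left out. Without a low-count filter, 17.8% of rows within 5 rows of a member and 9.81% of all rows were higher in Hs294T resistant, since many more rows of few counts were tested. Without scaling factors the median log2 fold change of all features in the WM9 contrast was -0.59, and 21 members were higher and 11 lower. Calls in the WM9 and control contrasts rest on fewer than 50 counts over 3 libraries, which limits the precision of every fold change there.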
